A study of Danio rerio with 6 samples.

Results

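The genes described here carry the IGF1 and insulin signal in zebrafish liver: the hormone IGF1, 2 of its binding proteins, an adaptor of the insulin receptor and a repressor of translation that the pathway controls. They are all rows of the deposited count table whose gene symbol, in any case, is IGF1, IGFBP1, IGFBP5, IRS2 or eif4ebp1, which gave 7 of 32520 rows. IGFBP5 and IRS2 each have 2 rows with that symbol (2 copies of the gene), and the other symbols have 1 row each. Of the 7 rows, 6 had counts, and the same 6 were high enough to be tested.

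Livers of zebrafish of the wild-type AB laboratory strain were compared after fertilisation with cryopreserved or with fresh sperm, a study titled as one of long-term effects on the offspring. There were 3 RNA-seq libraries in the fresh sperm group, named fresh 1 to 3, and 3 in the cryopreserved sperm group, named cryo 1 to 3, all with the same batch label. The series calls the 6 samples biological replicates, and its labels give no sex, age, feeding state or number of fish for a library. The titles start with F for the fresh group and C for the cryopreserved group; were letters and treatment labels crossed, every direction below would reverse.

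Liver is the main source of circulating IGF1, which it makes under the control of growth hormone. IGF binding proteins carry the hormone in blood and govern how much of it reaches its receptor. Insulin and IGF1 receptors act through IRS adaptors on PI3 kinase, AKT and the kinase complex mTORC1, which switches off the repressor encoded by eif4ebp1, while AKT holds back the FOXO transcription factors. In mammals IGFBP1 and IRS2 are FOXO targets in liver, high in fasting and low after insulin.

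Total counts were 16885619 to 17606733 in the fresh group, 16146121 in cryo 1, 8277183 in cryo 2 and 10409786 in cryo 3. Vitellogenin RNA, the egg yolk precursor made by the liver of egg-laying females, held 17.4% of counts in cryo 2 and 12.4% in cryo 3, and at most 6.04e-04% in the other 4 libraries. Hepatocyte markers were abundant throughout: their summed level was 175530 to 202104 CPM (counts scaled to a common library size) in the fresh and 173525 to 271934 CPM in the cryo libraries. These sums include the transferrin gene tfa, at 22260 to 41418 CPM in the fresh and 78269 to 127072 CPM in the cryo libraries. Of 20 tested markers, 15 had a negative log2 change (cryo over fresh) and 5 a positive one, with a median of -0.44. All 22 rows of that list had counts, although HNF4A averaged 0.40 CPM in the fresh and 0.95 CPM in the cryo group. Neither CPS1, at 0.06 CPM in cryo 1 and 0 elsewhere, nor the HPD row ENSDARG00000044935 was high enough to be tested. That HPD row averaged 0.51 CPM in the fresh and 0.48 CPM in the cryo group. Exocrine pancreas markers summed to 372 to 754 CPM in the fresh and 1503 to 5125 CPM in the cryo libraries, with PTF1A near 0. Of 23 tested markers, 12 were higher at an edgeR adjusted p under 0.05, where 1.02% of all tested genes were. Macrophage markers summed to 474 to 1750 and 1565 to 2226 CPM. The part of these other cells in the results below was not tested. In such bulk tissue, fewer cells of a type and less RNA per cell cannot be told apart.

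IGF1, IGFBP5 and eif4ebp1 fell in the cryopreserved sperm group, and none of the 6 tested rows was called higher, where 1.02% of all tested genes were. These 3 of 6 tested rows were called lower, meaning an adjusted p under 0.05 in edgeR's quasi-likelihood test, where 0.963% of all 12674 tested genes were. In either direction 251 genes were called, or 1.98%. A log2 change below -1 was found for 5 of the 6 rows and for 8.81% of all tested genes. In 4 of the 6 (the same 3 and IRS2 ENSDARG00000075282) all cryo libraries lay below all fresh libraries, which held for 13.4% of tested genes. IGFBP1 and the other IRS2 copy, ENSDARG00000037099, overlapped between the groups. By p-value eif4ebp1 ranked 20, IGFBP5 56 and IGF1 87 among the 12674 genes.

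IGF1 (ENSDARG00000094132) had 193, 182 and 132 CPM in fresh 1, 2 and 3, and 51.0, 30.9 and 43.7 CPM in cryo 1, 2 and 3. The groups did not overlap: the lowest fresh library was 2.59 times the highest cryo library, which was cryo 1, the cryo library with almost no vitellogenin RNA. The mean fell from 169 ± 32.3 to 41.9 ± 10.2 CPM (SD, n = 3 each), a log2 change of -2.01 ± 0.30 (SE; edgeR adjusted p = 0.0232). Within a group its level varied by 1.46 times from lowest to highest among fresh and 1.65 times among cryo libraries. The call did not survive the loss of most single libraries. Its adjusted p was 0.0834, 0.0929 and 0.0812 without fresh 1, 2 and 3, and 0.0148, 0.0505 and 0.0765 without cryo 1, 2 and 3, at log2 changes from -2.17 to -1.79. When cryo 1 stood alone for its group, with the spread taken from the fresh libraries, the change was -1.69 (adjusted p = 0.108).

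**Figure D1:**
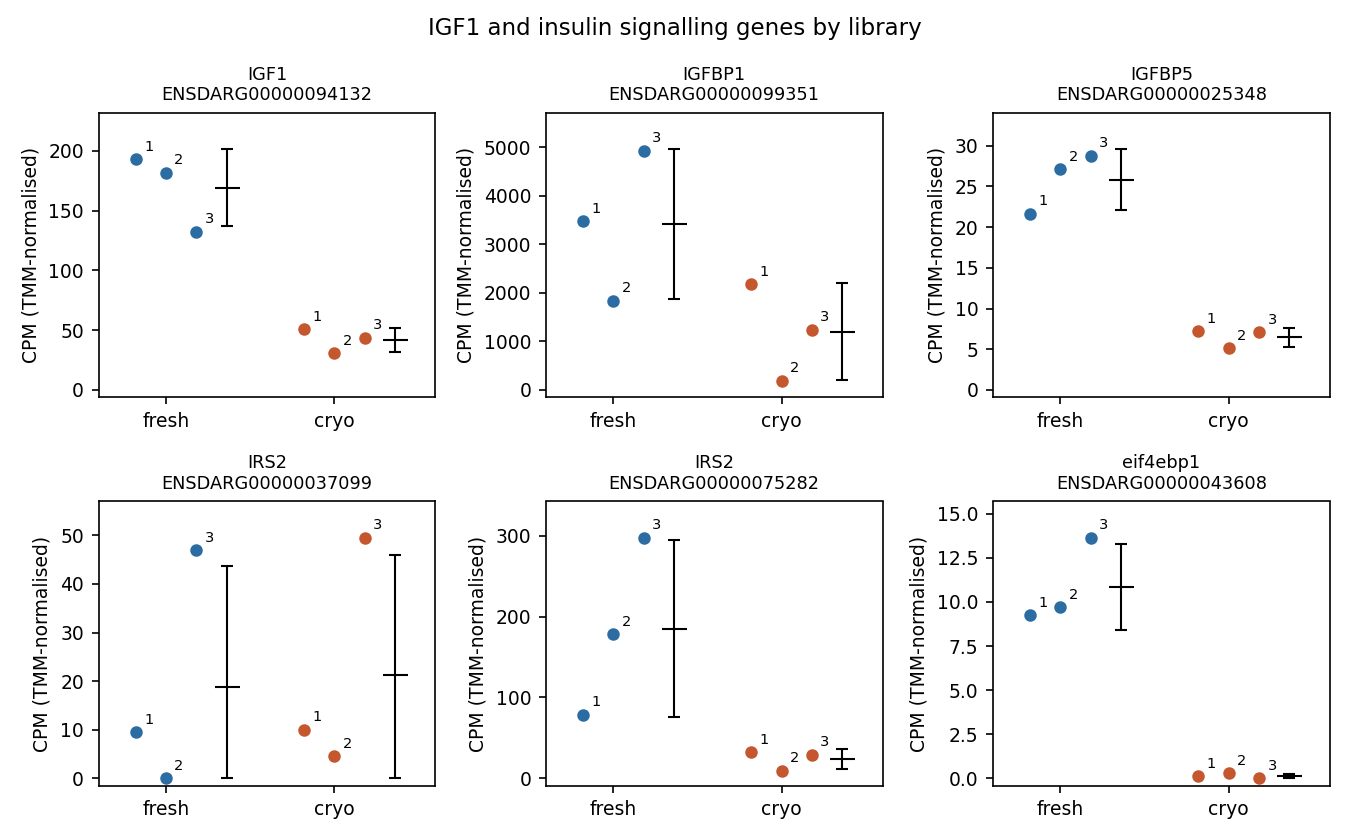
Level of each tested gene in each library (y axis, TMM-normalised CPM, linear from 0), fresh sperm group in blue and cryopreserved sperm group in orange, with numbers for replicates and bars for mean ± SD (n = 3, lower arm cut at 0). IGF1, IGFBP5, IRS2 ENSDARG00000075282 and eif4ebp1 separate the groups, while IGFBP1 and IRS2 ENSDARG00000037099 overlap.

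Of 4 tested ligand genes IGF1 was the single call by edgeR. The gene igf2a, one of the zebrafish copies of the growth factor IGF2, had 126, 194 and 51.4 CPM in the fresh and 226, 167 and 195 CPM in the cryo libraries. Its groups overlapped at a log2 change of 0.66 ± 0.45 (edgeR adjusted p = 0.483), and igf2b had -0.04 ± 0.54. The count of IGF1 over that of igf2a was 1.53, 0.94 and 2.58 in fresh 1, 2 and 3 and 0.23, 0.19 and 0.22 in cryo 1, 2 and 3. That ratio was 7.34-fold lower in the cryo group without overlap, at the smallest p that an exact two-sided permutation test of 3 against 3 allows (p = 0.10, 0.30 adjusted over the 9 ratios tested here). Insulin itself (ins), a pancreatic islet hormone, was listed at 0, 0.65 and 0.24 CPM in the fresh and 9.64, 0 and 0.78 CPM in the cryo libraries. The summed level of islet markers was 154, 0.71 and 9.10 CPM in cryo 1, 2 and 3, against 0.65 to 8.22 CPM in the fresh group.

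IGFBP5 (ENSDARG00000025348), which in mammals binds IGFs in matrix and in blood, also fell. It had 21.6, 27.1 and 28.8 CPM in the fresh and 7.18, 5.11 and 7.10 CPM in the cryo libraries. The lowest fresh library was 3.01 times the highest cryo library, again cryo 1. Its log2 change was -1.99 ± 0.26 (edgeR adjusted p = 0.0161). The call was kept without fresh 1 (0.0466), cryo 1 (0.0162) or cryo 2 (0.0379), and lost without fresh 2 (0.0831), fresh 3 (0.0893) or cryo 3 (0.0505), and with cryo 1 alone (0.0946). The other copy, ENSDARG00000039264, had no count in any library, which allows at most 0.163 to 0.426 CPM (3 counts per library, counting error only).

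Both binding proteins were set against the hormone within each library. IGFBP5 counts over IGF1 counts were 0.11, 0.15 and 0.22 in the fresh and 0.14, 0.17 and 0.16 in the cryo libraries, a mean log2 difference of 0.02 (exact permutation p = 1.0). IGFBP1 over IGF1 was 18.0006, 10.1 and 37.3 in the fresh and 42.6, 6.16 and 28.4 in the cryo libraries, a mean log2 difference of 0.04 (exact permutation p = 1.0). Cryo 1 and cryo 2 thus held the highest and the lowest IGFBP1 to IGF1 ratio of all 6 libraries. A test of 3 against 3 has little power, so these p-values do not show equal ratios.

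**Figure D2:**
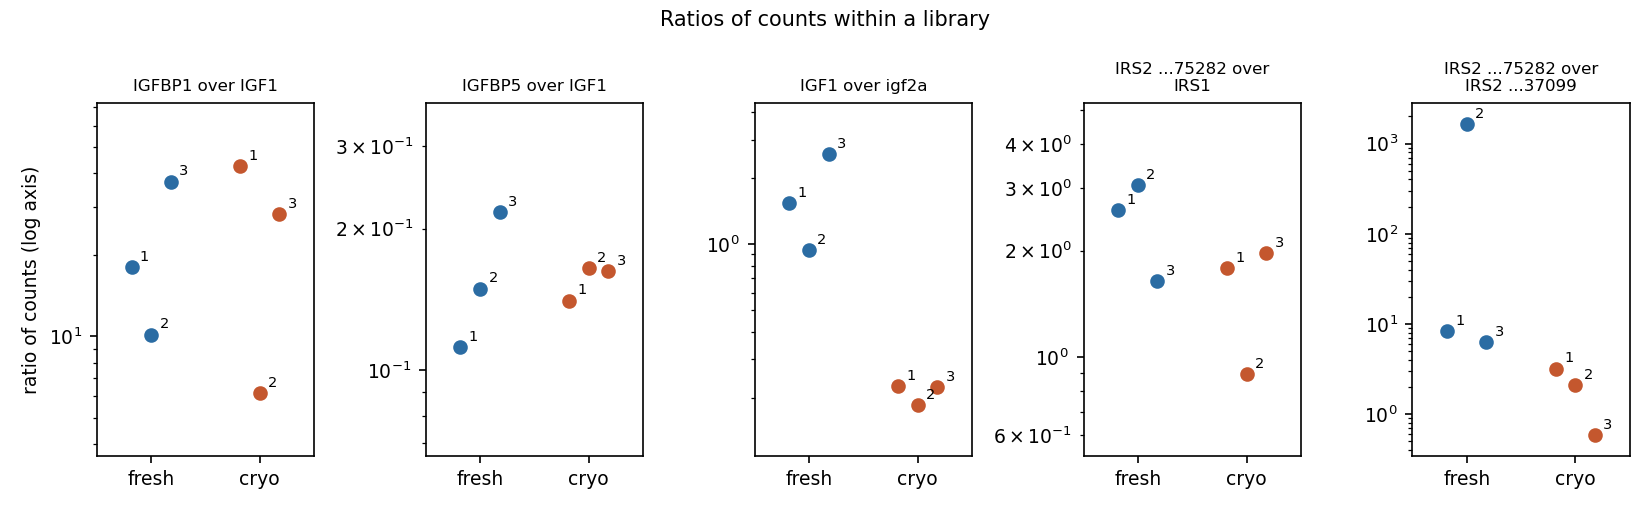
Counts of one gene over those of another in the same library (y axes, log scale, each panel its own range) in the fresh (blue) and cryo (orange) libraries, numbered by replicate; points are single libraries, with no error bars. IGF1 over igf2a and IRS2 ENSDARG00000075282 over IRS2 ENSDARG00000037099 separate the groups, and the other 3 ratios overlap.

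IGFBP1 (ENSDARG00000099351), a liver binding protein that in zebrafish restrains growth under low oxygen, was not called. Its level was 3479.7, 1843 and 4934 CPM in fresh 1, 2 and 3 and 2176, 191 and 1240.0 CPM in cryo 1, 2 and 3. Cryo 1 was above fresh 2, and cryo 2 was far below every other library. The log2 change was -1.51 ± 0.79 (edgeR adjusted p = 0.356), and it ran from -2.23 without cryo 1 to -0.61 with cryo 1 as the only cryo library. The spread was 2.68-fold among fresh and 11.4-fold among cryo libraries. Only 6.03% of tested genes had a higher fitted variation between libraries of a group.

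The copy igfbp1b had its own outlying library. It stood at 62.6, 39.6 and 462 CPM in the fresh and 62.9, 10.4 and 91.7 CPM in the cryo libraries, so fresh 3 was the highest and cryo 2 the lowest, as for IGFBP1. Its log2 change was -1.77 ± 1.04 (edgeR adjusted p = 0.411). A copy of IGFBP2 (ENSDARG00000052470) was likewise high in fresh 3 alone, at 59.6 CPM against 1.70 to 3.62 CPM in the other 5 libraries (log2 change -3.10 ± 1.19, adjusted p = 0.218). The other IGFBP2 copy, IGFBP3, IGFBP7 and IGFALS, which encodes the partner of the large IGF complex in blood, had log2 changes from -0.47 to -0.01. HTRA1 (ENSDARG00000014907), a protease that in mammals cleaves IGF binding proteins, had 0.27 to 0.59 CPM in the fresh and 1.56 to 7.50 CPM in the cryo libraries (3.10 ± 0.73, adjusted p = 0.0758). Of 10 tested genes of IGF binding and release, edgeR called IGFBP5 alone, and DESeq2 called 1 lower and 1 higher, where it called 3.41% of all genes lower and 4.12% higher.

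IRS2 encodes an adaptor that passes the insulin receptor's signal to PI3 kinase. ENSDARG00000075282 had 79.0, 178 and 297 CPM in fresh 1, 2 and 3 and 32.2, 9.51 and 29.3 CPM in cryo 1, 2 and 3. Every cryo library lay below every fresh one, by 2.46 times at the nearest. The mean was 185 ± 109 CPM in the fresh and 23.7 ± 12.3 CPM in the cryo group, and the log2 change of -2.96 ± 0.61 missed the threshold (edgeR adjusted p = 0.0571). It passed by DESeq2 (adjusted p = 3.12e-05, where 3.41% of genes were called lower) and when edgeR was run on every gene with counts (0.00751, where 1.38% were). By limma-voom it missed (0.0552), where 1.02% were called lower, and it missed when any 1 library was left out (0.0508 to 0.193).

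ENSDARG00000037099 had the highest fitted variation of the 6 tested rows. It had 161, 2 and 785 counts in fresh 1, 2 and 3, or 9.47, 0.11 and 47.0 CPM, and 10.03, 4.54 and 49.5 CPM in cryo 1, 2 and 3. The 3rd library was the highest in both groups, and fresh 2 stood 431-fold below fresh 3. Only 0.481% of tested genes had a higher fitted variation. The log2 change was 0.18 ± 1.41 (edgeR adjusted p = 0.965), and its sign turned when fresh 1, fresh 2 or cryo 3 was left out.

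The count of ENSDARG00000075282 over that of ENSDARG00000037099 was 8.34, 1639 and 6.33 in the fresh and 3.21, 2.09 and 0.59 in the cryo libraries. The groups did not overlap, at the smallest exact permutation p of 0.10 (0.30 adjusted over 9 ratios). Fresh 2 rests on 2 counts of the copy in the denominator. Reads of such copies may be shared, which makes the values of each uncertain.

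IRS1 (ENSDARG00000054087), the related adaptor, was not called either. It had 30.3, 58.1 and 182 CPM in the fresh and 17.98, 10.6 and 14.9 CPM in the cryo libraries. Like IRS2 ENSDARG00000075282, it was highest in fresh 3 and lowest in cryo 2. The groups did not overlap and the log2 change was -2.63 ± 0.64 (edgeR adjusted p = 0.0802). IRS2 ENSDARG00000075282 over IRS1 was 1.64 to 3.07 in the fresh and 0.89 to 1.97 in the cryo libraries (exact permutation p = 0.30). The 16 tested receptor substrates and adaptors, these included, had a median log2 change of 0.03. None was called by edgeR, and DESeq2 called 2 lower, where it called 3.41% of all genes lower. At an unadjusted p under 0.05, 2 were lower and 1 higher, where 9.29% of all tested genes were lower and 9.26% higher, so the total is near the background. The adaptor gene grb2b came next by p, at 1.13 ± 0.41 (adjusted p = 0.196).

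Among 3 tested receptor genes none was called by edgeR or DESeq2, or passed an unadjusted p of 0.05. The INSR copies, which encode insulin receptors, had 52.4 to 73.7 CPM in the fresh and 46.5 to 73.2 CPM in the cryo libraries for ENSDARG00000011948 (log2 change -0.06 ± 0.27) and -0.44 ± 0.32 for ENSDARG00000071524. IGF2R, the receptor that clears IGF2 in mammals, had 0.15 ± 0.48. Both IGF1R copies were at or below 0.13 CPM in every library and were not tested.

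The repressor gene eif4ebp1 (ENSDARG00000043608) had the largest change of the 6 tested rows. Its protein binds the cap-binding factor eIF4E and blocks translation until mTORC1 phosphorylates it. Counts were 157, 178 and 228 in fresh 1, 2 and 3 and 2, 2 and 0 in cryo 1, 2 and 3. In CPM these were 9.23, 9.69 and 13.6 against 0.13, 0.28 and 0. All cryo libraries were near the floor of detection, and the lowest fresh library was 32.5 times the highest cryo library.

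Summed over libraries, 563 fresh counts stood against 4 cryo counts, a ratio of normalised levels of 85.1 with a 95% interval of 33.1 to 314 that covers counting error only. The fitted log2 change was -6.31 ± 0.62 (edgeR adjusted p = 0.00479). This call held without each single library (0.00960 to 0.0346) and with cryo 1 as the only cryo library (0.0310, where 0.298% of genes were called lower). In cryo 1, the deepest of the 3, there were 2 counts.

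No related repressor gene was called. EIF4EBP2 had 159, 170 and 162 CPM in the fresh and 191, 124 and 129 CPM in the cryo libraries, a log2 change of -0.14 ± 0.27. EIF4EBP3 (ENSDARG00000041607) had 0.09 ± 0.48 and eif4ebp3 (ENSDARG00000054916) -0.36 ± 0.63. The count of eif4ebp1 over that of EIF4EBP2, with 0.5 added to each, was 64.7-fold lower in the cryo group, without overlap and at the smallest exact permutation p of 0.10 (0.30 adjusted over 9 ratios). With eif4ebp1 near the floor in all cryo libraries and EIF4EBP2 at 124 to 191 CPM, this separation was fixed in advance. The ratio adds no further support.

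Genes of mTORC1 and of cap-dependent translation had a median log2 change of 0.01 over 38 tested genes, with eif4ebp1 the single call by edgeR. DESeq2 called 1 lower and 1 higher, where it called 3.41% of all genes lower and 4.12% higher. MTOR had 0.06 ± 0.31. Next by p were RPS6KA1, a ribosomal S6 kinase gene, at 1.70 ± 0.47 (edgeR adjusted p = 0.109) and castor1, a gene for an arginine sensor upstream of mTORC1, at 1.21 ± 0.38 (0.144). RPS6, the ribosomal protein that S6 kinases phosphorylate, had 883.6 to 1076 CPM in the fresh libraries and cryo 1 and 2577 and 2437 CPM in cryo 2 and 3, the libraries with vitellogenin RNA.

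The eif4ebp1 gene is also a target of ATF4, a transcription factor of the amino acid and endoplasmic reticulum stress response. Of 23 tested genes in that list, eif4ebp1 was the single call by edgeR, and the list's median was -0.23. DESeq2 called 1 lower and 2 higher, against 3.41% and 4.12% of all genes. The gene atf4a had 72.4 to 160 CPM in the fresh and 85.9 to 119 CPM in the cryo libraries, and ASNS, the asparagine synthetase gene, had -0.09 ± 0.54. The stress gene nupr1b had 0 to 2.06 CPM in the fresh and 3.04, 22.4 and 102 CPM in the cryo libraries (5.37 ± 1.46, adjusted p = 0.104). SLC3A2, the heavy chain of amino acid exchangers, had 2.37 ± 0.78 (0.158), with 26.5 and 23.9 CPM in cryo 2 and 3 and 1.63 to 4.61 CPM elsewhere.

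FOXO factors and their targets had the lowest median of the 10 pathway lists. It was -0.85 over 27 tested genes, 22 of them negative, where the median of all tested genes was 0.00 and 49.9% were negative. These 27 include IGFBP1 and both IRS2 copies described above. PPARGC1A and PDK2 (1 of its copies) passed the test, both lower, where 0.963% of all tested genes were called lower. PPARGC1A, a coactivator of fasting programmes, had 8.70, 13.9 and 9.09 CPM in the fresh and 2.85, 2.41 and 2.22 CPM in the cryo libraries (-2.07 ± 0.32, edgeR adjusted p = 0.0251). PDK2 (ENSDARG00000020876), a pyruvate dehydrogenase kinase gene, had 110, 85.3 and 145 against 19.3, 22.6 and 37.2 CPM (-2.10 ± 0.35, adjusted p = 0.0300). The other PDK2 copy, ENSDARG00000059054, overlapped between the groups, at 41.7, 152 and 374 against 24.2, 25.3 and 42.7 CPM. That copy was not called (-2.62 ± 0.72, edgeR adjusted p = 0.105). PPARGC1A kept its call when cryo 1 was left out (0.0226) but not without any other single library (0.0610 to 0.0979). The called PDK2 copy lost its call without fresh 1, 2 or 3 or cryo 2 (0.0801 to 0.134). With cryo 1 as the only cryo library the log2 changes were -1.85 for PPARGC1A and -2.51 for that PDK2 copy, and neither passed. DESeq2 called 7 genes of the list, all lower and IRS2 ENSDARG00000075282 among them, where it called 3.41% of all genes lower and 4.12% higher.

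The gluconeogenic genes of this list were not called by edgeR, and PCK1 had the profile nearest to that of IGFBP1. PCK1, the committing enzyme of glucose production, had 2910.4, 1524 and 3563 CPM in fresh 1, 2 and 3 and 1345, 119 and 1246 CPM in cryo 1, 2 and 3, with cryo 2 again far below the rest. Its log2 change was -1.56 ± 0.79 (edgeR adjusted p = 0.344). IGFBP1 over PCK1 was 1.20, 1.21 and 1.38 in the fresh and 1.62, 1.60 and 0.996 in the cryo libraries. The glucose 6-phosphatase copy g6pc1a.1 had 309, 341 and 774 CPM in the fresh and 112, 57.9 and 192 CPM in the cryo libraries (-1.98 ± 0.54, adjusted p = 0.105). A more abundant copy, G6PC1 ENSDARG00000013721, had 2315, 3565 and 6910 CPM in the fresh and 2209, 1892 and 3143 CPM in the cryo libraries. Its groups overlapped (-0.82 ± 0.48, edgeR adjusted p = 0.407). Fresh 3 held the highest level of 12 of the 27 tested genes in this list, against 13.8% of all tested genes, and cryo 2 the lowest of 14, against 24.0%. Among the 6 tested genes named at the outset, fresh 3 was highest for 4 and cryo 2 lowest for 4.

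**Figure D3:**
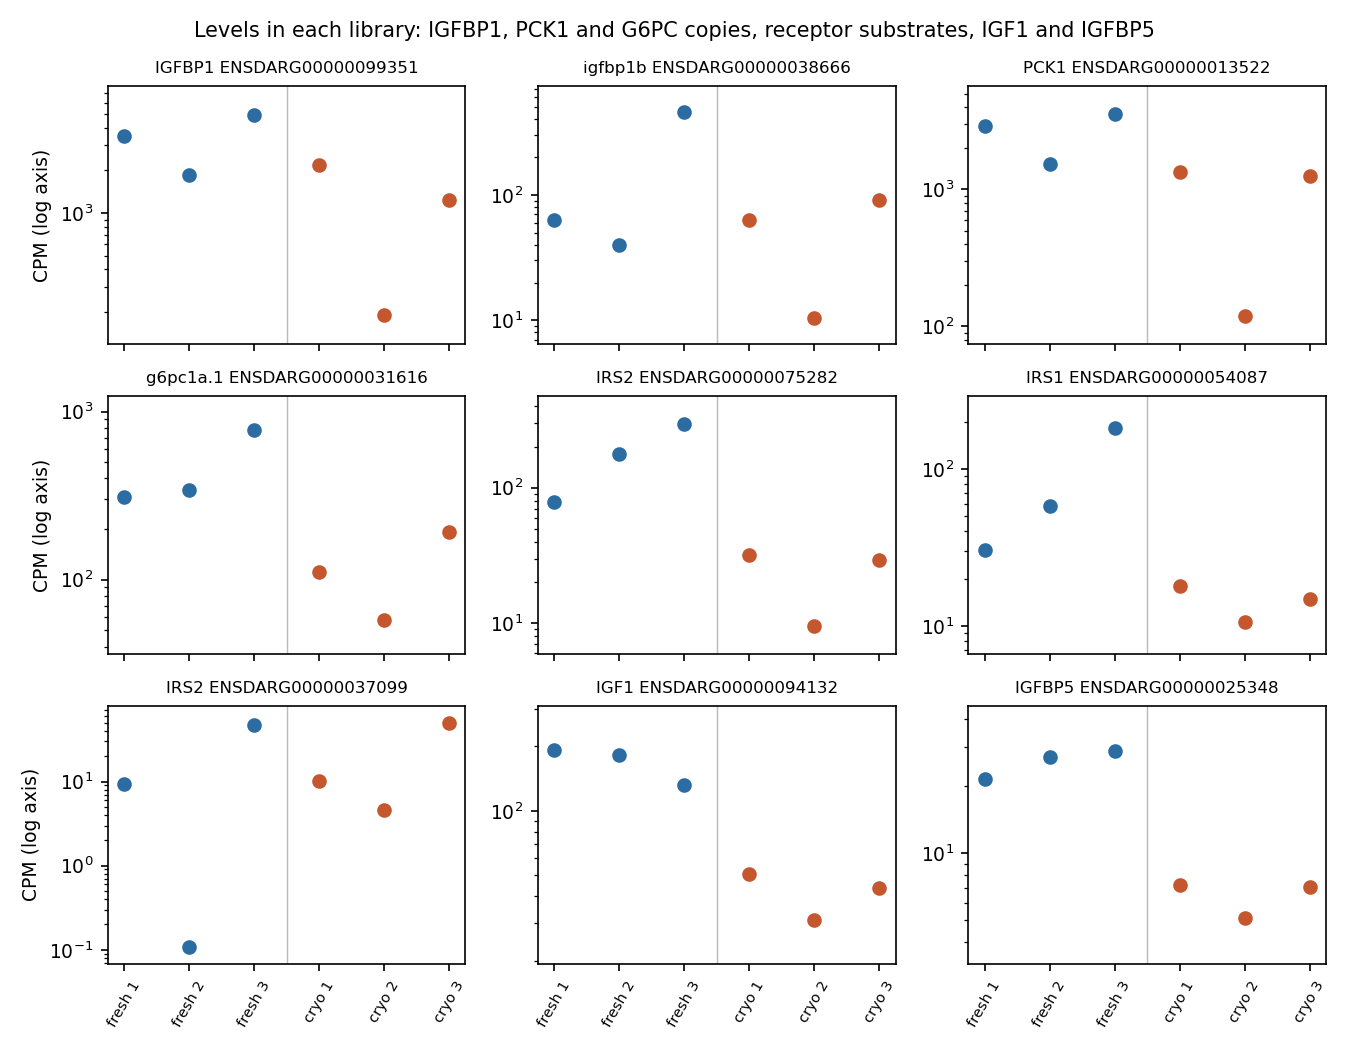
Level of 9 genes in each of the 6 libraries (y axes, CPM on a log scale, each panel its own range; points are single libraries with no error bars, fresh in blue and cryo in orange). IGFBP1 and PCK1 share their order in the fresh group and are lowest in cryo 2, whereas IGF1 is highest in fresh 1 and lowest in cryo 2.

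Genes that insulin induces in mammalian liver moved in both directions. Of 15 tested, 9 were positive and 6 negative, with a median log2 change of 0.38. By edgeR 2 were called lower and 1 higher, where 0.963% and 1.02% of all tested genes were. DESeq2 called 4 in each direction, where it called 3.41% of all genes lower and 4.12% higher. ACLY (ENSDARG00000099079), the ATP citrate lyase gene, fell from 750.1, 434 and 1273 to 76.0, 45.4 and 85.1 CPM (log2 change -3.57 ± 0.49, edgeR adjusted p = 0.0185), and lost its call without fresh 1, fresh 3 or cryo 3 (0.0564 to 0.0714). ELOVL6, a fatty acid elongase gene, fell from 139, 55.2 and 80.4 to 3.56, 0 and 0.22 CPM (-5.99 ± 1.11, adjusted p = 0.0417), but its call was lost without fresh 1, 2 or 3, cryo 2 or cryo 3 (0.0656 to 0.134). With cryo 1 alone neither ACLY (0.112) nor ELOVL6 (0.0619) passed. ME1, the malic enzyme gene, had -4.42 ± 0.99 (0.0684), and FASN, the fatty acid synthase gene, -1.10 ± 0.26 (0.0746). In the other direction PKLR had 1.76 ± 0.55 (edgeR adjusted p = 0.144) and srebf2 1.54 ± 0.44 (0.116), both without overlap of the groups. Over the whole list, all 6 negative genes and 3 of the 9 positive genes had no overlap of the groups. Of all tested genes, 13.4% lay lower and 11.2% higher without overlap. The 6 include mlxipl (-1.09 ± 0.31, edgeR adjusted p = 0.116) and SREBF1 (-0.74 ± 0.35, 0.317).

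Growth hormone drives IGF1 in liver, and 11 of 14 tested genes of its axis were negative, with a median of -0.60. No gene of this list was called by edgeR or DESeq2. Of all tested genes, 9.29% were lower and 9.26% higher at an unadjusted edgeR p under 0.05. In this list 3 of 14 were lower and 0 higher, so the total is near the background. The 3 lower genes were SOCS2, a feedback inhibitor that growth hormone induces, and both growth hormone receptor genes. SOCS2 had 25.0, 27.8 and 73.3 against 12.9, 5.53 and 24.6 CPM (-1.55 ± 0.60, edgeR adjusted p = 0.227). The receptor ghrb had 149, 213 and 140.3 against 111, 71.2 and 121 CPM (-0.73 ± 0.31, adjusted p = 0.258), and ghra -1.31 ± 0.52 (0.235). In all 3 every cryo library lay below every fresh one, which held for 4 of the 14 genes and for 13.4% of all tested genes. For SOCS2 the gap was narrow, with 25.0 CPM in fresh 1 against 24.6 CPM in cryo 3. Levels of stat5a and stat5b, which carry the receptor's signal to the IGF1 gene, had -0.73 ± 0.39 and -0.41 ± 0.28. Other genes of the list changed less or varied more. JAK2 had -0.02 ± 0.24, and CISH overlapped between the groups at -0.54 ± 1.04. The gene jak2a had 0.30 ± 0.22, with every cryo library above every fresh one.

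In the PI3 kinase and AKT list 17 of 24 tested genes were negative, with a median of -0.24. None was called by edgeR, and DESeq2 called 1 higher, where it called 4.12% of all genes higher. At an unadjusted p under 0.05, 5 of 24 were lower and 0 higher, against 9.29% and 9.26% of all tested genes. The total is thus near the background. The smallest p belonged to GSK3A (ENSDARG00000015681), a kinase gene whose product AKT inhibits, with 32.7 to 34.7 CPM in the fresh and 19.2 to 20.6 CPM in the cryo libraries (-0.76 ± 0.21, edgeR adjusted p = 0.102). The AKT kinase gene akt1, at a mean of 4.90 CPM in the fresh and 2.11 CPM in the cryo group, had -1.21 ± 0.33 (0.108). A related GSK3 gene, gsk3bb, at 2.60 against 0.59 CPM, had -2.19 ± 0.71 (0.155). Of the more abundant AKT genes, AKT2 (ENSDARG00000103612) had 255 against 239 CPM (-0.10 ± 0.26). The other, akt2 (ENSDARG00000011219), had 51.5 against 43.2 CPM (-0.25 ± 0.21). PIK3R1, the main regulatory subunit of PI3 kinase, had 113 to 428 against 301 to 483 CPM (0.63 ± 0.48).

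Counting each gene once, the 10 lists held 155 tested genes beside those named at the outset. Of these 4 were called lower and 1 higher by edgeR, or 2.58% and 0.645%, against the 0.963% and 1.02% given above for all tested genes. Their median log2 change was -0.17.

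**Figure D4:**
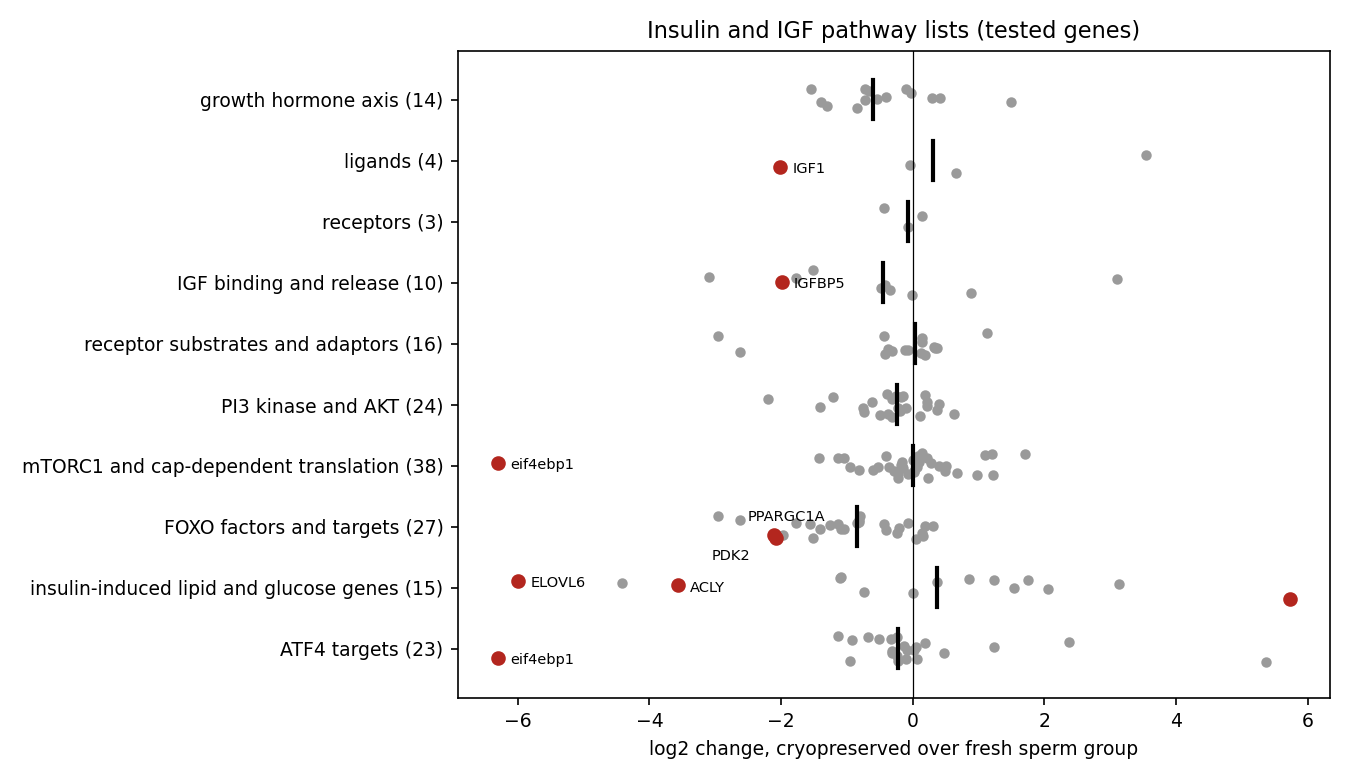
Log2 change, cryopreserved over fresh sperm group (x axis), of each tested gene in 10 pathway lists (rows, number tested in brackets); red points passed edgeR at an adjusted p under 0.05, grey points did not, and black bars are list medians. Names are given for called genes that fell. A gene in several lists is drawn in each, and eif4ebp1 has the most negative value in both its lists.

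Of 7244 tested genes with a mean of at least 5 CPM, those most like IGF1 over the 6 libraries, by the root mean square difference of centred log2 CPM, were rsrp1 (0.15), ALLC (0.21) and F9 (0.21), the clotting factor IX gene. F9 was also nearest to IGFBP5 (0.17), followed by the carboxylesterase gene ces2b (0.21) and the carnitine acetyltransferase gene CRAT (0.21). F9 had 101 ± 7.32 CPM in the fresh and 26.1 ± 5.89 CPM in the cryo group. PCK1 was nearest to IGFBP1 (0.25), then PRKAG2, a subunit of the energy sensor AMPK (0.36), and the arginase gene ARG2 (0.44). An unnamed gene, ENSDARG00000113137, was nearest to IRS2 ENSDARG00000075282 (0.13), with 19.2 ± 9.16 against 2.47 ± 1.43 CPM; whether the pair overlap in the genome was not tested. The glucuronosyltransferase genes ugt5a1 (0.37) and ugt2b1 (0.48) came next. Nearest to eif4ebp1 were the acyl-CoA thioesterase gene ACOT12 (0.40), the phosphoinositide kinase gene PIK3C2A (0.44) and si:ch211-214b16.4 (0.57). Nearest to IRS2 ENSDARG00000037099 were stap2a (1.05), tac4 (1.35) and BSDC1 (1.48).

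**Figure D5:**
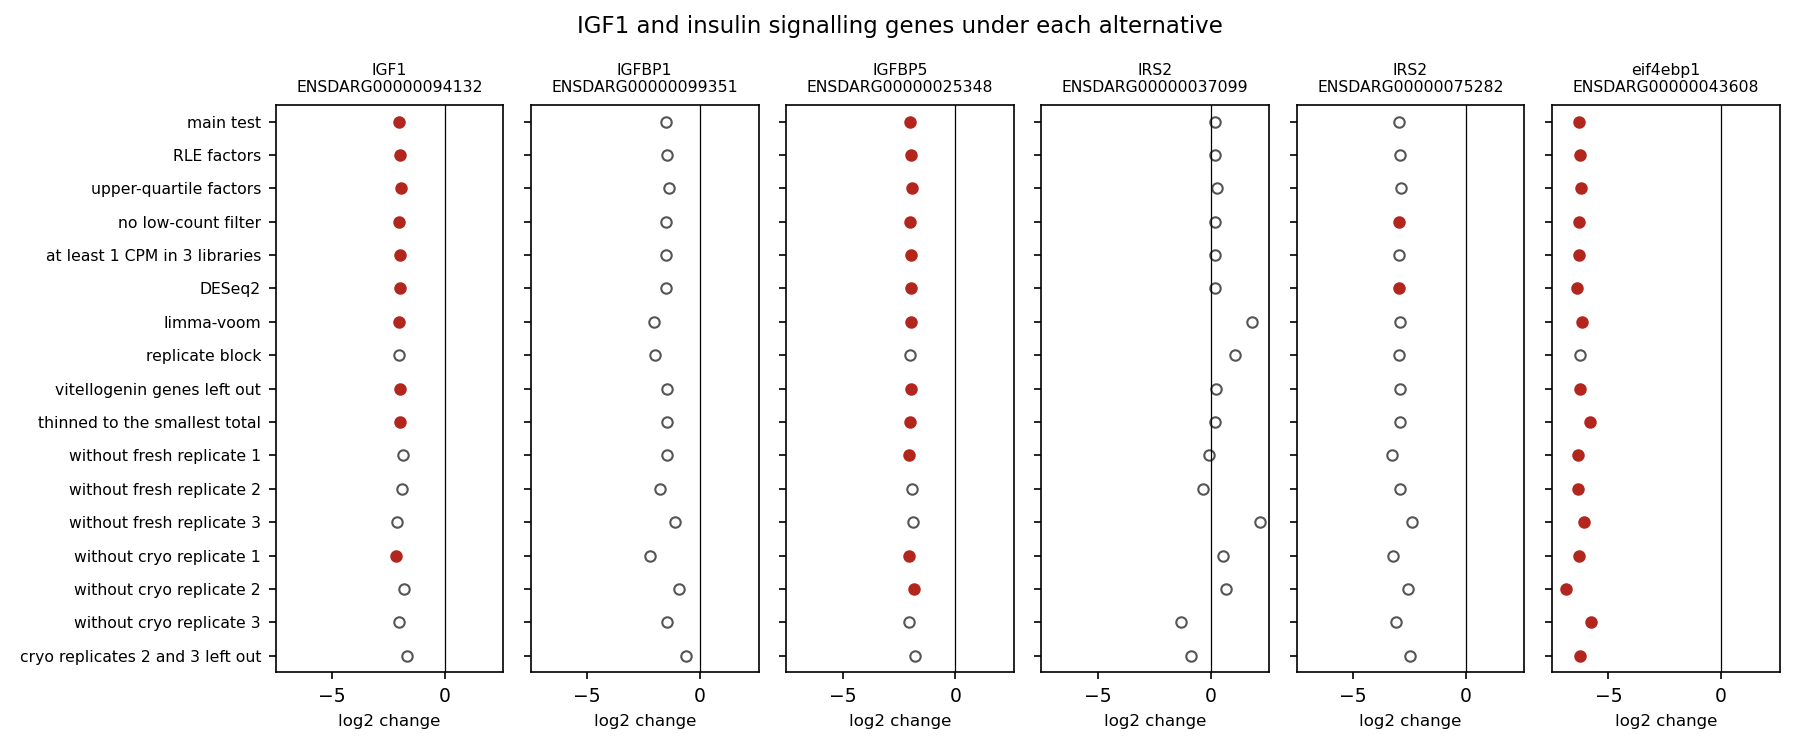
Log2 change, cryopreserved over fresh sperm group (x axes), of the 6 tested genes in the main test and 16 alternatives (rows); filled red points passed at an adjusted p under 0.05 and open points did not. The change of eif4ebp1 passed in 15 of 16 alternatives, IGFBP5 in 11, IGF1 in 9 and IRS2 ENSDARG00000075282 in 2, and IRS2 ENSDARG00000037099 lies on both sides of 0.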

How the data were processed

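The authors deposited whole-number counts per Ensembl gene for 6 libraries, from HISAT2 alignments per the file headers and build GRCz11 (danRer11) per the submitters' processing notes. Counting tool, strand setting and annotation release: not given in the sources used here. Genes that overlap, lie antisense or are near-identical may share reads. RNA was selected on poly-T beads per the labels' protocols. A name table matched 29201 of 32520 identifiers. Sequences are not shown, since no sequence table or genome was used here.

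Of 21810 genes with counts, 12674 passed filterByExpr. The test was edgeR 4.0.16 (R 4.3.3) with a quasi-likelihood fit of group with TMM factors, two-sided, with Benjamini-Hochberg adjustment over all tested genes and a threshold of 0.05. CPM are TMM-normalised over the tested genes, SE is the size of the log2 change over the square root of F, and the common biological coefficient of variation was 0.413. Fitted variation is edgeR's tagwise dispersion. Ratios of counts were tested by exact permutation. On simulated counts for this comparison (12419 genes), changes were planted only in genes with a mean of at least 5 CPM. Those of 1, 2 and 3 on the log2 scale were recovered in 4.41%, 50.0% and 97.0% of cases, with 9 false calls among 109. Alternatives used DESeq2 1.42.0 and limma 3.58.1. Replicates differed beyond sampling noise (chi-square over its degrees of freedom at least 53.2). Genes, lists and alternatives were chosen with earlier results of these data known. The genes named are those of the 5 symbols, in each pathway list every called gene and the 3 of smallest p, and the 3 most alike profiles; part of these is printed, some genes are not reported here, and other list genes were named after their values were seen. Figures used matplotlib 3.10.9.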

Additional observations from a re-analysis of the deposited data

How the results depend on the processing

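The main test called 251 genes in all. Separate fits called 705 without the low-count filter, 1161 by DESeq2, 33 with a replicate block, 32 to 873 when 1 library was left out, and 109 with cryo replicates 2 and 3 left out together. Of the 3 calls among the genes described, 1 to 3 stayed when 1 library was left out. With cryo replicates 2 and 3 left out 1 stayed, eif4ebp1; its spread is then taken from the fresh libraries alone. The replicate block in edgeR left 0 calls, with adjusted p-values of 0.0565 for eif4ebp1, 0.0850 for IGFBP5 and 0.0935 for IGF1. At an unadjusted p under 0.05 this fit had 5 of the 6 genes lower, where 1953 of 12674 tested genes passed in either direction. Deviations of same-numbered libraries correlated at -0.07, -0.13 and 0.06, and 1 of 6 libraries was closest to its own number. With 3 libraries per group, this check cannot decide whether the replicate numbers pair the libraries. RLE and upper-quartile factors, the stricter filter, limma-voom, thinning and leaving out vitellogenin genes kept the count of 3. Of 9 vitellogenesis markers, vitellogenin genes included, only 2 passed the filter of the main test. Leaving vitellogenin genes out could therefore change that fit little, and it does not test the state of cryo 2 and 3. IGF1, IGFBP1, IGFBP5, IRS2 ENSDARG00000075282 and eif4ebp1 kept their direction in all 16 alternatives. IRS2 ENSDARG00000037099 ran from -1.31 to 2.20 on the log2 scale when 1 library was left out, and had -0.87 with cryo replicates 2 and 3 left out, against 0.18; the cause was not tested. Depth limits eif4ebp1 in the cryo group, where 1 count is worth 0.06 to 0.14 CPM.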

Other observations

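Several core parts of the pathway had few or no counts in any library of either group. Both copies of TSC1, whose product restrains mTORC1, and the S6 kinase genes rps6kb1a and rps6kb1b were listed at 0 in all 6 libraries. RHEB, the activator of mTORC1, was listed as rheb at 0 to 0.54 CPM, and MLST8, an mTORC1 subunit, at 0 to 0.22 CPM. Since TSC1, RHEB and MLST8 serve most cell types, a level near 0 here does not show that a gene is silent.

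Among the FOXO genes themselves, FOXO1 (ENSDARG00000099555) had 100.2, 49.1 and 74.2 CPM in the fresh and 43.0, 52.1 and 31.5 CPM in the cryo libraries (-0.82 ± 0.33, edgeR adjusted p = 0.241). FOXO4 had -0.23 ± 0.28. The gene foxo3b was high in the 3rd library of each group, at 27.9 CPM in fresh 3 and 33.1 CPM in cryo 3 against 6.10 to 9.44 CPM in the other 4 libraries, as IRS2 ENSDARG00000037099 was.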
